A study of Homo sapiens with 54 samples.

Results

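The mutant and wild-type forms of STAT6 were compared in OCI-Ly1 cells 4 h after a short pulse of IL-4. The members are the 18 libraries whose labels give a wait of 4 h, out of 54 libraries in the series, and the others were taken at 2 h or 8 h (18 each). OCI-Ly1, grown from a human B cell lymphoma of germinal center type, is a permanent cell line that carries a STAT6 variant of its own in the DNA-binding domain. It was stably transduced with Flag-tagged STAT6 under a CMV promoter, either STAT6 wild-type (9 libraries) or STAT6 D419G, STAT6 D419N, or STAT6 N421K (3 libraries each, 9 mutant libraries in all). All of these cells received IL-4 at 10 ng/ml for 20 min, were washed, and were kept without IL-4 for 4 h. The Flag-tagged protein, the endogenous STAT6, and the IL-4 pulse were thus shared by every library, and libraries without IL-4 or with an empty vector were not analysed here. How often each construct was transduced independently is not stated, so effects of genotype and of the particular transduced population cannot be told apart. The labels number the libraries of each line as biological replicates but do not say what was repeated. The p-values therefore measure the spread between these libraries, which may be technical and may not hold that between independent transductions.

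IL-4 binds its receptor on B cells, the receptor-bound JAK kinases phosphorylate STAT6, and STAT6 dimers enter the nucleus and bind paired TTC and GAA half-sites, mostly with a spacer of 4 bases. Genes switched on in this way include the CD23 gene FCER2, the receptor gene IL4R, and SOCS1 and CISH, whose products dampen JAK-STAT signaling. Interferons use relatives of STAT6, which join IRF9 in a complex that binds the interferon-stimulated response element, built on repeats of GAAA, and turns on antiviral genes such as MX1. D419 and N421 lie in the DNA-binding domain of STAT6.

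The mutant libraries held 175878 to 1394881 unique molecular identifiers (UMIs, each standing for 1 captured RNA molecule) on genes, with a median of 879456, and the wild-type libraries 676409 to 1744064, with a median of 871000 (p = 0.342, two-sided exact permutation test). Both libraries under 0.5 of the median of all 18 were of D419G, replicates 2 and 3. Mitochondrial genes took 4.62% to 6.88% of UMIs in wild-type and 4.68% to 7.02% in mutant libraries (p = 0.755, exact permutation test). All 9 B lymphoma cell markers on the list were tested, and their summed level was 3633 to 4156 CPM (counts per 1000000 UMIs of the scaled library total) in wild-type and 3565 to 4021 CPM in mutant libraries (p = 0.0848, exact permutation test). Tested gene by gene as below, 2 of these 9 markers rose (BCL6 and MME) and 3 fell (CD22, CD79A, and CD79B). That is 55.6%, against 3.26% of all genes tested, and the sum adds these opposite changes. No marker of T and NK, myeloid, or stromal and erythroid cells reached a mean of 3 UMIs per library. Within these lists, the T and NK cell markers CD3D, CD3E, CD2, and NKG7 and the myeloid markers CSF1R, S100A8, and S100A9 had no row in the table, CSF3R had 0 UMIs, and HBA2, at 38 UMIs over the 18 libraries, was the most abundant. Row C of the plate held 7 wild-type and 5 mutant libraries and row D held 2 and 4.

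STAT6 itself (ENSG00000166888) was lower in mutant libraries. The 9 wild-type libraries had 133, 152, and 185 CPM at the lowest, median, and highest, and the 9 mutant libraries 110, 124, and 152 CPM. Of these, 8 mutant libraries lay below every wild-type library, and the log2 fold change was -0.30 ± 0.08 (SE, adjusted p = 0.0153). Whether molecules of the transgene are counted on this gene is unknown, so STAT6 does not check the labels. The call was lost without the N421K libraries (adjusted p = 0.19) and without N421K replicate 1 alone.

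At 4 h, 381 of the 11673 genes tested differed between mutant and wild-type (3.26%), 199 of them higher in the mutant (1.70% of genes tested) and 182 lower (1.56%). These shares are the background for the counts of each gene list below. The lists were chosen with earlier results of these data known, so a share above the background may partly reflect that choice. The rises were the larger changes: 53 of the 199 genes that rose had a log2 fold change of at least 1, against 18 of the 182 that fell by as much (26.6% and 9.89%). At an unadjusted p under 0.05, 13.7% of the genes tested differed. The median log2 fold change was 0.60 among the genes that rose, -0.43 among those that fell, and 0.0032 over all genes tested. In 378 of the 381 genes (99.2%), the log2 fold change had the same sign in D419G, D419N, and N421K. The genes were chosen on the pooled effect of these lines against the same wild-type libraries. That choice favors a shared sign, so the share is no evidence that the lines agree. All 9 mutant libraries lay above all 9 wild-type libraries for 30 genes (0.257% of those tested) and below them for 11 (0.0942%). The genes that separated the genotypes upward included MX1, PARP14, HELZ2, IRF7, PARP9, DTX3L, and OAS2 of the interferon response, SOCS1, CISH, IRF4, and XBP1 of the IL-4 response, and the germinal center regulator BCL6. Those that separated them downward included BMP7, POU2F2, CD22, CUX1, and RHEB. Without the N421K libraries, 117 genes were called, 78 higher and 39 lower. That comparison holds fewer mutant libraries, so a call lost there need not mean a smaller effect. Within plate row C, 111 genes were called (79 higher, 32 lower), and with plate row as a covariate 344.

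**Figure D1:**
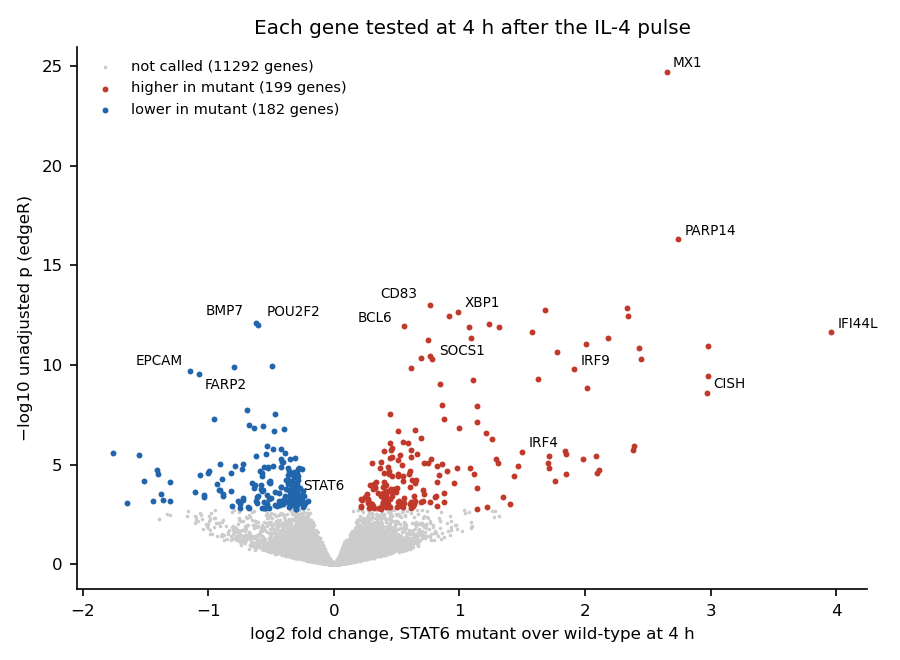
Log2 fold change of mutant over wild-type STAT6 at 4 h (x axis) against −log10 of the unadjusted p from edgeR (y axis), 1 point per gene tested, with 199 genes called higher in red and 182 called lower in blue. The largest rises reached a log2 fold change of 3.96 (IFI44L), whereas the largest fall was -1.76, and MX1 had the smallest p.

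Among the 21 IL-4 and STAT6 target genes listed, 16 were tested, 5 rose and none fell. The median log2 fold change of those tested was 0.40 against 0.0032 over all genes tested. The 5 were CISH, PARP14, IRF4, XBP1, and SOCS1. PARP14, IRF4, and SOCS1 are on the list partly because the study named them on these samples. The study proposes PARP14 as a target of the mutant forms only, so it is not a previously known target. CISH (ENSG00000114737) encodes a SOCS family protein that restrains STAT signaling. Its level was 0, 1.06, and 2.68 CPM in the wild-type libraries (0 to 4 UMIs) and 5.30, 8.49, and 25.3 CPM in the mutant libraries (1 to 14 UMIs) at the lowest, median, and highest. The groups did not overlap, and the log2 fold change of 2.97 ± 0.42 (SE, adjusted p = 7.1e-07) rests on few molecules per library. SOCS1 (ENSG00000185338), the inhibitor of JAK kinases, ranged from 50.9 to 62.8 CPM in wild-type (median 55.9) and from 70.4 to 125 CPM in mutant libraries (median 95.7). Every mutant library was above every wild-type library, at a log2 fold change of 0.79 ± 0.10 (SE, adjusted p = 2.2e-08).

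XBP1 (ENSG00000100219), a transcription factor of plasma cells and of the unfolded protein response, was at 30.1, 48.2, and 57.0 CPM in wild-type and at 76.2, 91.0, and 122 CPM in mutant libraries at the lowest, median, and highest. The groups did not overlap, with a log2 fold change of 0.99 ± 0.10 (SE, adjusted p = 4.0e-10). IRF4 (ENSG00000137265), a factor that drives activated B cells toward plasma cells, had 2.31 to 5.77 CPM in wild-type (median 4.16) and 6.29 to 27.8 CPM in mutant libraries (median 11.1). Its log2 fold change was 1.5 ± 0.29 (SE, adjusted p = 3.5e-04), again without overlap. It differed from wild-type in D419G (2.30, adjusted p = 4.3e-05) and N421K (1.42, adjusted p = 0.0053), whereas in D419N the value was 0.90 (adjusted p = 0.45), and the lines themselves did not differ by the joint test (adjusted p = 0.31).

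The classic IL-4 targets FCER2 and IL4R did not pass at 4 h. FCER2 (ENSG00000104921), which encodes the IgE receptor CD23, had 8.66, 11.6, and 15.3 CPM in wild-type and 5.77, 15.8, and 32.6 CPM in mutant libraries at the lowest, median, and highest, with 6 mutant libraries above and 1 below all wild-type libraries. Its log2 fold change was 0.49 ± 0.21 (SE, adjusted p = 0.27), and in N421K by itself 0.84 (adjusted p = 0.036). IL4R had a median of 328 CPM in wild-type and 334 CPM in mutant libraries (log2 fold change 0.04 ± 0.07, SE, adjusted p = 0.88). In the receptor and JAK-STAT6 list, 10 of 12 genes were tested and JAK2, one of the kinases, was called higher (1.11 ± 0.25, SE, adjusted p = 0.0025). The JAK2 groups overlapped, at 4.16 to 10.5 CPM in wild-type and 0 to 27.8 CPM in mutant libraries, with the shallow library of D419G replicate 3 at 0 UMIs, and the exact permutation test gave p = 0.212. JAK2 was not called without the N421K libraries (adjusted p = 0.23).

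Of all lists, that of antiviral effectors held the most genes that rose, though lists differ in length. The interferon-related lists are those of antiviral effectors, ISG15 conjugation, nucleic acid sensors, PARP, apolipoprotein L, and STAT and IRF genes. Of the 199 genes that rose, 42 were in these lists (median log2 fold change 1.26) and 157 in none of them (0.53). Of the 53 that rose by at least 1, 27 were in these lists and 26 in none. Of 50 antiviral effectors listed, 37 were tested, 24 rose and none fell (median log2 fold change 0.69 against 0.0032 over all genes tested). MX1 (ENSG00000157601), a GTPase that blocks the replication of RNA viruses, had the smallest p of all genes. It was at 27.4, 32.0, and 38.1 CPM in wild-type and 131, 186, and 312 CPM in mutant libraries at the lowest, median, and highest, a log2 fold change of 2.65 ± 0.15 (SE, adjusted p = 2.2e-21). The lowest mutant library was thus more than 3 times the highest wild-type library. IFI44L had the largest fold change with all lines pooled, with 0 to 3.85 CPM in wild-type (0 to 3 UMIs, median 1.39 CPM) and 2.53 to 65.0 CPM in mutant libraries (median 14.4), a log2 fold change of 3.96 ± 0.44 (SE, adjusted p = 1.6e-09). The fold thus rests on few wild-type molecules, and without the N421K libraries it was 2.58, below the 3.23 of CISH.

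Among the other effectors, EPSTI1 rose by 2.34, HELZ2, a helicase that acts as a coactivator, by 2.34, SAMD9L by 2.18, and SAMD9 by 1.58, with standard errors of 0.25, 0.24, 0.25, and 0.18. IFI27 (ENSG00000165949), a mitochondrial protein of the interferon response, had 0 to 6.30 CPM in wild-type and 5.44 to 19.2 CPM in mutant libraries, a log2 fold change of 2.45 ± 0.30 (SE, adjusted p = 2.1e-08). EIF2AK2, the kinase PKR that stops translation on double-stranded RNA, rose from a median of 86.5 to 154 CPM (1.08 ± 0.12, SE, adjusted p = 9.8e-10). Genes of the list that did not pass included SP100, a nuclear body protein and the most abundant of them, at a median of 214 CPM in wild-type and 225 CPM in mutant libraries (0.04 ± 0.07, SE, adjusted p = 0.89). Without the N421K libraries 15 effectors were called, and with edgeR's filterByExpr 17.

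Of 13 STAT and IRF genes tested, 5 rose, IRF4 of the IL-4 targets among them, STAT6 fell, and 7 did not pass. IRF9 (ENSG00000213928), the DNA-binding subunit of the complex that type I interferons activate, was at 2.11, 4.61, and 10.1 CPM in wild-type and 8.79, 21.5, and 25.4 CPM in mutant libraries at the lowest, median, and highest (log2 fold change 1.92 ± 0.25, SE, adjusted p = 6.2e-08). IRF7, which amplifies the interferon response, went from a median of 13.7 to 35.9 CPM without overlap (1.68 ± 0.18, SE, adjusted p = 3.9e-10). IRF1 rose by 0.71 ± 0.18 (SE, adjusted p = 0.01), a call lost without the N421K libraries (adjusted p = 0.32). The most abundant IRF gene that did not pass was IRF8, a factor of germinal center B cells, at medians of 239 and 215 CPM (-0.16 ± 0.07, SE, adjusted p = 0.28). A long noncoding gene, ENSG00000259529, overlaps IRF9 on the same strand and was called higher too, so the pair may share molecules.

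Sensors of foreign nucleic acid and the ISG15 system, which tags proteins with the ubiquitin-like ISG15, rose with them. Of 7 sensors tested, 5 rose, and of 5 genes of ISG15 conjugation, 4 rose. The RNA sensor RIGI had a median of 11.6 CPM in wild-type and 30.0 CPM in mutant libraries (1.63 ± 0.22, SE, adjusted p = 1.7e-07), and DHX58, a regulator of RIGI, rose by 1.29 ± 0.26 (SE, adjusted p = 6.8e-04). The RNA sensor IFIH1 was called at 0.76 ± 0.21 (SE, adjusted p = 0.029) and MYD88, an adaptor of Toll-like receptors, at 0.45 ± 0.12 (SE, adjusted p = 0.022), but IFIH1 lost its call in 13 of 34 alternatives and MYD88 in 6. DHX58 lost its call without the N421K libraries (adjusted p = 0.096), as did UBE2L6, a conjugating enzyme for ISG15 (adjusted p = 0.23), and in D419G the median over the sensors was 0.13 with 1 called. MAVS, the adaptor through which RIGI signals, was at medians of 108 and 105 CPM (-0.07 ± 0.09, SE, adjusted p = 0.82). ISG15 itself rose from a median of 122 to 197 CPM (0.75 ± 0.09, SE, adjusted p = 3.3e-09). TRIM25, a ligase for ISG15 that also activates RIGI, went from 83.1 to 141 CPM without overlap (0.77 ± 0.09, SE, adjusted p = 1.6e-08).

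Of 17 genes listed for the PARP family and its partner DTX3L, which attach ADP-ribose to proteins, 14 were tested, and PARP14, PARP9, and DTX3L rose. PARP14 (ENSG00000173193, from 122680839 to 122730840 on the plus strand of chromosome 3 in GRCh38) acts as a coactivator of STAT6. It had 3.01, 4.16, and 8.81 CPM in wild-type (2 to 7 UMIs) and 10.9, 34.6, and 48.1 CPM in mutant libraries (2 to 58 UMIs) at the lowest, median, and highest. The lowest mutant value came from the shallow library of D419G replicate 3 and still lay above the wild-type range, and the log2 fold change was 2.74 ± 0.23 (SE, adjusted p = 2.7e-13). By line, PARP14 rose by 2.82 in D419G, 2.13 in D419N, and 3.11 in N421K. PARP9 and DTX3L, neighbors of PARP14 on chromosome 3 that lie head to head on opposite strands with overlapping ends, rose by 2.01 ± 0.24 and 1.77 ± 0.21 (SE, adjusted p = 5.0e-09 and 1.2e-08), each without overlap between the groups. Since the use of strand in the counting is not given in the sources used here, molecules of the 2 genes may be shared. PARP1, the most abundant listed member and the main PARP of DNA repair, was at 699 and 650 CPM (-0.06 ± 0.05, SE, adjusted p = 0.74). The other 11 listed members tested, PARP1 included, did not pass. ZC3HAV1, a PARP family member that this list leaves out, rose by 0.69 on the log2 scale without overlap (adjusted p = 2.0e-08).

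The apolipoprotein L genes APOL6 and APOL1 also rose, APOL6 from a median of 26.9 to 64.4 CPM without overlap (1.23 ± 0.14, SE, adjusted p = 9.8e-10). APOL1 went from a median of 10.1 to 17.3 CPM, and its groups overlapped. Its call was lost without the N421K libraries (0.63 on the log2 scale, adjusted p = 0.36). For antigen presentation by MHC class I, which interferon gamma raises, 0 of 8 genes tested passed, and 0 of the 8 were called in any single line. Over all genes tested 3.26% passed, so this count does not set the list apart. The median log2 fold change was 0.093, with 6 of the 8 positive, and B2M was at 280 and 317 CPM (0.08 ± 0.07, SE, adjusted p = 0.68). The other 9 genes of the list had too few UMIs to be tested. Of the MHC class II genes, CIITA and CD74 were tested, and CD74, the invariant chain, fell from a median of 859 to 700 CPM (-0.26 ± 0.05, SE, adjusted p = 0.0016), a call lost without the N421K libraries (adjusted p = 0.12). Of 8 genes that the study named for these libraries, 7 were called here, which is no independent evidence of their direction.

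Promoters were read from RefSeq (GRCh38.p14), as windows from 250 bases before to 50 bases after each gene's start, and 3 motifs, which can overlap, were searched on both strands. The N4 site is TTC and GAA with any 4 bases between them, the spacing STAT6 prefers, and the N3 site has any 3 bases, the spacing other STATs prefer. The interferon element is GAAA, any 2 bases, and GAAA again, the core of the interferon-stimulated response element. The interferon element was present in a window of 17.3% of the 162 genes called higher with a window and 3.70% of 135 called lower. Its share was 3.81% of the 8060 genes tested with a window and 4.38% of all 27305 genes. The N4 site was present in 13.6% of the genes called higher, 5.19% of those called lower, 6.58% of those tested, and 7.80% of all genes. The N3 site was present in 18.5%, 8.89%, 8.34%, and 9.38%, in the same order. Among the 34 genes called higher in the interferon-related lists, the shares were 52.9% for the interferon element, 41.2% for the N3 site, and 11.8% for the N4 site, and among the 128 other genes called higher they were 7.81%, 12.5%, and 14.1%. A gene with several windows was counted once, and these shares describe letters, not binding. The stretches before the start of 6 genes that rose are shown because they hold these motifs in different mixtures, with the motif in capitals, written 5′ to 3′ on the gene's strand. CISH (chr3:50611863-50612024, minus strand) holds the N3 site 4 times. BCL6 (chr3:187745473-187745511, minus strand) also has 4 in its window, of which the first is shown, and CD83 (chr6:14117216-14117255, plus strand) has 2 copies of the N4 site, of which the first is shown. PARP14 (chr3:122680784-122680834, plus strand) and EPSTI1 (chr13:42992267-42992312, minus strand) each hold the N3 site beside the interferon element, and in EPSTI1 the motifs overlap. IFI44L (chr1:78620269-78620399, plus strand) holds 2 copies of the interferon element in repeated sequence.
CISH: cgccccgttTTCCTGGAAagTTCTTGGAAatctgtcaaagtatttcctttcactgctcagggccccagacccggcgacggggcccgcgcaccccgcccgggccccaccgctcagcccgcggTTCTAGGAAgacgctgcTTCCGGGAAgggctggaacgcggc
BCL6: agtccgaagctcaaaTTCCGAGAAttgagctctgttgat
CD83: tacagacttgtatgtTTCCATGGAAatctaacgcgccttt
PARP14: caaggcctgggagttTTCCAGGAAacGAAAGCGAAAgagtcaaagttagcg
EPSTI1: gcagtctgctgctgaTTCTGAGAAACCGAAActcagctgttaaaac
IFI44L: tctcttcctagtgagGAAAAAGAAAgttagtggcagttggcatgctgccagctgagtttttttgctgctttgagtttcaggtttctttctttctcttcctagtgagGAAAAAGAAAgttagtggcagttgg

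The transcription factors of germinal center B cells moved in both directions. Of 25 tested, 5 rose and 4 fell (median log2 fold change -0.041), in all 36.0% against 3.26% of all genes tested. This list too was chosen with earlier results of these data known, so the share is no independent evidence. BCL6 (ENSG00000113916), the repressor that holds B cells in the germinal center, was at 391, 438, and 480 CPM in wild-type and 543, 636, and 744 CPM in mutant libraries at the lowest, median, and highest, a rise of 0.56 ± 0.06 (SE, adjusted p = 9.8e-10) without overlap. ID2, an inhibitor of E proteins, rose by 0.43 ± 0.09 (SE, adjusted p = 0.0014). AFF2, a relative of the elongation factor AFF4 that this list also holds, rose by 2.43 ± 0.29 (SE, adjusted p = 7.5e-09), from a median of 3.85 to 15.2 CPM. POU2F2, the factor OCT2 that drives immunoglobulin genes, fell from 266 to 314 CPM in wild-type (median 292) to 175 to 220 CPM in mutant libraries (median 185), without overlap (-0.60 ± 0.07, SE, adjusted p = 9.8e-10). BACH2, a repressor of plasma cell genes, fell by 0.33 on the log2 scale (SE 0.07, adjusted p = 0.0024), and BCL11A by 0.90 (SE 0.19, adjusted p = 0.0011). BCL11A was at -0.03 in D419G, -0.70 in D419N, and -2.06 in N421K, and the lines differed (adjusted p = 1.5e-04). Without the N421K libraries the calls of ID2, BACH2, and BCL11A were lost (adjusted p = 0.08, 0.087, and 0.27), at log2 fold changes of 0.35, -0.29, and -0.43. BCL6 and POU2F2 passed in all 34 alternatives. Of 7 plasma cell genes tested, XBP1 and IRF4 rose and the other 5 did not pass, with JCHAIN at 658 and 607 CPM (-0.09 ± 0.06, SE, adjusted p = 0.53).

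Of 25 surface and activation molecules of B cells tested, 9 fell, 3 rose, and 13 did not pass, with a median log2 fold change of -0.23. The share called was 48.0%, against 3.26% of all genes tested. CD22 (ENSG00000012124), an inhibitory coreceptor, was at 330 to 391 CPM in wild-type (median 343) and 255 to 322 CPM in mutant libraries (median 274), with no overlap (-0.31 ± 0.06, SE, adjusted p = 6.1e-04). CD72, another inhibitory receptor, fell by 0.62 on the log2 scale (SE 0.12, adjusted p = 5.2e-04), from a median of 58.1 to 35.8 CPM. EPCAM is an adhesion molecule of epithelia that this list, chosen with earlier results of these data known, also holds. It had the largest fall of the list, from 71.8 to 105 CPM in wild-type (median 94.8) to 17 to 81.6 CPM in mutant libraries (median 47.3). Its log2 fold change was -1.15 ± 0.15 (SE, adjusted p = 7.1e-08). TNFRSF13C, the receptor for the survival factor BAFF, fell by 0.53 on the log2 scale (SE 0.11, adjusted p = 0.0014) and the costimulatory CD48 by 1.00 (SE 0.22, adjusted p = 0.0019). In the other direction, the activation marker CD83 went from 155, 189, and 238 CPM to 270, 325, and 413 CPM at the lowest, median, and highest (0.77 ± 0.08, SE, adjusted p = 3.6e-10). The adhesion molecule ICAM1 rose by 1.14 ± 0.28 (SE, adjusted p = 0.0088) and MME, which encodes CD10, by 0.37 ± 0.08 (SE, adjusted p = 0.0015). The most abundant gene that did not pass was MS4A1, which encodes CD20, at 650 and 686 CPM (0.06 ± 0.06, SE, adjusted p = 0.76). Without the N421K libraries 4 of these surface genes were called, CD83 higher and EPCAM, CD22, and CD72 lower.

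Of 24 genes of B cell receptor signaling tested, 5 fell, none rose, and 19 did not pass, with a median log2 fold change of -0.14. The share called was 20.8%, against 3.26% of all genes tested. The kinase PRKCB, which links the receptor to NF-kappaB, fell from a median of 45.0 to 19.8 CPM, with 8 of 9 mutant libraries below all wild-type libraries (-0.96 ± 0.15, SE, adjusted p = 1.3e-05). The signaling chains CD79A and CD79B fell by 0.25 and 0.36 on the log2 scale (SE 0.07 and 0.08, adjusted p = 0.016 and 0.0019), the kinase BLK by 0.63 (SE 0.16, adjusted p = 0.009), and the exchange factor VAV1 by 0.34 (SE 0.09, adjusted p = 0.021). SYK, the kinase that CD79A and CD79B recruit, was at 377 and 357 CPM (-0.03 ± 0.06, SE, adjusted p = 0.89). Of the 5, PRKCB kept its call without the N421K libraries (adjusted p = 0.0067). The others did not pass there, at -0.20 for CD79A, -0.33 for CD79B, -0.55 for BLK, and -0.29 for VAV1 on the log2 scale.

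Receptors that place B cells in the follicle were among the genes that fell. Of 16 migration and adhesion receptors tested, 3 fell and none rose (median log2 fold change -0.11). The share called was 18.8%, against 3.26% of all genes tested. CXCR5, the receptor for the follicle chemokine CXCL13, was at 160 to 239 CPM in wild-type (median 182) and 120 to 185 CPM in mutant libraries (median 133), with 8 of 9 below the wild-type range (-0.42 ± 0.08, SE, adjusted p = 3.0e-04). S1PR2, which confines germinal center B cells, fell by 0.48 on the log2 scale (SE 0.09, adjusted p = 2.8e-04), and the integrin subunit ITGAL by 0.53 (SE 0.11, adjusted p = 0.0015). CXCR5 passed in all 34 alternatives, whereas S1PR2 and ITGAL were lost without the N421K libraries (adjusted p = 0.059 and 0.19). S1PR2 shares its strand and part of its span with DNMT1.

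Of 17 NF-kappaB response genes tested, CD83 and ICAM1 rose and BIRC3, an inhibitor of apoptosis, fell by 0.36 on the log2 scale (SE 0.08, adjusted p = 0.0042), while the subunit REL was at 219 and 176 CPM (-0.14 ± 0.09, SE, adjusted p = 0.58). Of 14 BCL2 family genes, HRK, a sensitizer to apoptosis, fell by 0.41 on the log2 scale (SE 0.08, adjusted p = 9.0e-04), and BCL2 was at 436 and 397 CPM (-0.15 ± 0.06, SE, adjusted p = 0.24). HRK was the 1 gene called of the 14 (7.14%, against 3.26% of all genes tested). ICAM1, BIRC3, and HRK lost their calls without the N421K libraries (adjusted p = 0.17, 0.0795, and 0.059), at log2 fold changes of 0.99, -0.35, and -0.36. Of 12 MYC, AP-1, and immediate early genes, 20 p53 targets, 21 heat shock genes, 32 mitosis genes, and 75 ribosomal protein genes tested, none passed, with medians of 0.090, 0.067, -0.006, 0.053, and 0.031 on the log2 scale. Over all genes tested 3.26% passed, so no call in a short list is close to that share. The most abundant of each were BTG1 (0.07), RBM38 (-0.23), HSP90AB1 (-0.01), TOP2A (0.06), and RPS19 (0.06), in log2 fold change.

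Some metabolic genes were modestly higher. Of 26 genes of cholesterol and fatty acid synthesis tested, 4 rose and none fell (median log2 fold change 0.18): the sterol enzymes MSMO1 (0.75 ± 0.15, SE, adjusted p = 9.8e-04), IDI1 (0.33 ± 0.08, SE, adjusted p = 0.0085), and HMGCS1 (0.30 ± 0.09, SE, adjusted p = 0.042) and the regulator SREBF1 (0.47 ± 0.12, SE, adjusted p = 0.012). Without the N421K libraries MSMO1 kept its call (adjusted p = 0.011) and IDI1 and SREBF1 lost theirs (adjusted p = 0.16 and 0.3), and HMGCS1 lost its call in 21 of 34 alternatives. Of 24 genes of glycolysis and the hypoxia response, 3 were called (12.5%, against 3.26% of all genes tested). ALDOC, BNIP3, and HIF1A rose, by 0.37, 0.35, and 0.42 on the log2 scale. Without the N421K libraries BNIP3 and HIF1A were still at 0.39 and 0.42 but did not pass (adjusted p = 0.059 and 0.087). GAPDH was at 5157 and 5455 CPM (0.08 ± 0.05, SE, adjusted p = 0.5). In the unfolded protein response, XBP1 and PDIA6, a disulfide isomerase, were called higher among 25 tested (8.0%, against 3.26% of all genes tested). PDIA6 was at 0.22 ± 0.06 (SE, adjusted p = 0.042), with the call lost in 21 of 34 alternatives. The chaperone HSPA5 was at 565 and 553 CPM (0.01 ± 0.06, SE, adjusted p = 0.99). Of 35 genes of G1/S and DNA replication, ORC6 (0.46 ± 0.09, SE, adjusted p = 5.8e-04) and MCM6 (0.27 ± 0.07, SE, adjusted p = 0.027) rose and the cell cycle kinase CDK6 fell, from a median of 12 to 2.65 CPM (-1.55 ± 0.30, SE, adjusted p = 4.6e-04). Together they were 8.57% of the genes tested there, against 3.26% of all genes tested. CDK6 and ORC6 lost their calls without the N421K libraries (adjusted p = 0.077 and 0.098), and MCM6 lost its call in 10 of 34 alternatives.

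The other large falls concerned genes of varied function. FARP2, an exchange factor for Rac, went from 37.5 to 59.9 CPM in wild-type (median 49.0) to 14.6 to 40.4 CPM in mutant libraries (median 22.5; -1.08 ± 0.14, SE, adjusted p = 1.0e-07). BMP7 (ENSG00000101144), a secreted ligand of the TGF-beta family, was at 254 to 292 CPM in wild-type (median 277) and 120 to 197 CPM in mutant libraries (median 175), with a wide gap between the groups (-0.62 ± 0.07, SE, adjusted p = 9.8e-10). LYPD6B, LIX1L, the actin-severing protein gelsolin (GSN), the receptor of platelet-activating factor PTAFR, and AMPD3 fell by 1.01, 0.93, 0.91, 0.89, and 0.88 on the log2 scale. These 5 lost their calls without the N421K libraries (adjusted p = 0.15, 0.24, 0.21, 0.31, and 0.37), while FARP2 and BMP7 kept theirs.

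The genes that fell were unevenly spread over the genome. Chromosome 7 held 598 of the genes tested and 47 of the 182 that fell (7.86% of its genes against 1.22% of the 11075 genes elsewhere), beside 9 of the 199 that rose, and 135 genes that fell lay elsewhere. In windows of 20 Mb, 23 of 105 genes tested between 100 and 120 Mb fell, with a median log2 fold change of -0.22, whereas 0 of 50 between 40 and 60 Mb fell, with a median of 0.012. Beyond 95 Mb, a boundary chosen after the values were seen, 41 of 295 genes fell (13.9%), 232 of 295 had a negative value, and the median was -0.17 (-0.125 in D419G, -0.14 in D419N, and -0.22 in N421K). Before 95 Mb, 6 of 303 fell and the median was -0.005. Relative to genes of other chromosomes, the median log2 level of the 221 better covered genes beyond 95 Mb lay between -0.012 and 0.022 in the 9 wild-type libraries and between -0.25 and -0.087 in the 9 mutant libraries, so the groups did not overlap. The median over the region was also negative at 2 h (-0.18) and at 8 h (-0.15). Among the genes of this region are CUX1 and RHEB, which separated the genotypes without overlap, ARPC1B, and the respiratory chain gene NDUFB2 (-0.20 ± 0.06, SE, adjusted p = 0.027), the 1 respiratory chain gene of 36 that passed (2.78%, against 3.26% of all genes tested). NDUFB2 lost its call in 12 of 34 alternatives. The part of gene copy number or of the transduced populations in this pattern was not tested.

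The mutant lines were next compared with wild-type one by one. D419G differed from wild-type in 96 genes (0.822% of those tested), 69 higher (0.591%) and 27 lower (0.231%), D419N in 66 (0.565%), 49 higher (0.420%) and 17 lower (0.146%), and N421K in 425 (3.64%), 203 higher (1.74%) and 222 lower (1.90%). The D419G count fell to 38 without its shallow replicates 2 and 3, where 1 library is left and is assumed to vary like the other groups, and to 19 without D419G replicate 1, the D419N count to 35 without D419N replicate 2, and the N421K count to 198 without N421K replicate 1. Of the 381 genes called with the lines pooled, 35 were called in each line (9.19%) and 23 differed among the lines by a joint test (6.04%). That test called 43 genes in all (0.368%), and N421K was the line farthest from the other two in 35 of them, D419G in 5, and D419N in 3.

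Interferon genes were prominent among the genes that differed among the lines, with N421K the highest. IFI44L had 50.3, 65.0, and 53.5 CPM in the N421K libraries, 7.69, 14.4, and 19.4 CPM in D419N, and 6.92, 2.53, and 10.9 CPM in D419G, in the order of replicates 1 to 3. Its log2 fold change was 4.89 in N421K, 2.89 in D419N, and 1.76 in D419G (adjusted p = 2.1e-09 for a difference among the lines). MX1 was at 247, 312, and 302 CPM in N421K, 186, 182, and 190 CPM in D419G, and 131, 131, and 136 CPM in D419N, so the lines separated without overlap (3.13, 2.52, and 2.03, adjusted p = 2.2e-09). EPSTI1, EIF2AK2, IRF7, HELZ2, RIGI, IFIH1, ISG15, and SAMD9L differed as well (adjusted p from 1.1e-05 to 0.047), each with the largest value in N421K. Of the 37 antiviral effectors, 10 differed among the lines and 29 had their largest value in N421K, as did 3809 of all 11673 genes tested.

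Other genes differed among the lines through a fall in N421K. CAMK4, a calcium-dependent kinase of lymphocytes, was at -2.85 in N421K, -0.02 in D419G, and 0.26 in D419N (adjusted p = 1.6e-08 for the difference among lines) and did not pass in the pooled comparison (-0.48 ± 0.24, SE, adjusted p = 0.37). PAG1, an adaptor that holds Src kinases in check, was at -1.66, -0.32, and -0.12 (adjusted p = 9.4e-07), EPCAM at -2.21, -0.74, and -0.69 (adjusted p = 7.4e-06), and CD48 at -2.38, -0.38, and -0.53 (adjusted p = 0.0042), each in the order N421K, D419G, and D419N. The tetraspanin CD9 was at 0.79 in N421K and -0.60 in D419G (adjusted p = 2.3e-07). By contrast, the joint test did not pass for PARP14 (adjusted p = 0.078), IRF9 (0.81), DTX3L (0.88), CISH (0.56), XBP1 (0.87), SOCS1 (0.56), BCL6 (0.49), or POU2F2 (0.94), which does not show that the lines act alike: for CISH the values ran from 3.76 in D419G to 2.48 in N421K, and for BCL6 from 0.73 to 0.44.

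The mutant effect at 4 h was then set against that at 2 h and at 8 h in a model of all 54 libraries, in which 745, 415, and 224 of 11861 genes were called at 2, 4, and 8 h (6.28%, 3.50%, and 1.89%). The effect at 4 h differed from that at 2 h for 41 genes (0.346%), lying above it for 37 (0.312%) and below it for 4 (0.0337%), and 7.09% of genes had an unadjusted p under 0.05. Of the 37, 21 were lower in the mutant at 2 h and not called at 4 h, and 10 were not called at 2 h and higher at 4 h. Without the N421K libraries 11 genes differed between 2 and 4 h, and without replicate 2 of each group 14. IL4R belonged to the first kind, with a mean of 251.3 CPM in mutant and 414 CPM in wild-type libraries at 2 h and 332 and 323 CPM at 4 h, a change of the effect by 0.75 (adjusted p = 1.5e-07). The stress gene GADD45B went from 40.2 against 72.7 CPM at 2 h to 78.6 against 66.3 CPM at 4 h (change of the effect 1.09, adjusted p = 4.9e-07), and the p53 target RBM38 from 230 against 409 CPM to 356 against 418 CPM (0.57, adjusted p = 0.0094).

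CD83 and SOCS1 were of the second kind. Wild-type CD83 dropped from a mean of 648 to 188 CPM between 2 and 4 h and the mutant mean from 586 to 329 CPM, so a log2 fold change of -0.14 at 2 h became 0.77 at 4 h (change 0.91, adjusted p = 1.5e-07). SOCS1 dropped from 97.0 to 55.7 CPM in wild-type and stayed at 106 and 97.0 CPM in the mutant (change 0.75, adjusted p = 2.4e-04). GCSAM, a germinal center signaling adaptor, moved from -0.46 at 2 h to 0.51 at 4 h (adjusted p = 4.0e-06 for the change), and MGAT1, an enzyme of N-glycan synthesis, from -0.34 to 0.46 (adjusted p = 1.6e-05). For MX1, the mutant mean went from 73.9 to 201 CPM and the wild-type mean from 35.5 to 32.2 CPM, raising the effect from 1.30 to 2.65 (adjusted p = 0.0025).

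The effect at 4 h differed from that at 8 h for 3 genes (0.0253%), above it for 1 (0.00843%) and below it for 2 (0.0169%), and 7.58% of genes had an unadjusted p under 0.05. Between 4 and 8 h, 0 genes differed without the N421K libraries and 1 without the D419G libraries. LMO4, a transcriptional adaptor of the LIM family, was 0.92 higher on the log2 scale at 4 h and 0.05 at 8 h (change 0.87, adjusted p = 1.8e-04), after 0.96 at 2 h. BMP7 was at -0.15, -0.62, and -0.16 at 2, 4, and 8 h and differed from both neighbors (adjusted p = 0.0046 and 0.013). BMF, a BCL2 family gene that promotes apoptosis, was at -0.23 at 4 h and 0.52 at 8 h (change -0.75, adjusted p = 0.013). By list, the antiviral effectors had a median log2 fold change of 0.36 at 2 h, 0.69 at 4 h, and 0.56 at 8 h in this model, and the immediate early genes -0.35, 0.089, and 0.19. Time points lay in different plate rows, so a change over time within a genotype cannot be told apart from the row, while mutant and wild-type were both present in each.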

How the data were processed

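RNA of 18 libraries at 4 h was measured by prime-seq, a bulk 3' method. The authors deposited 1 table of raw UMI counts per gene, made with the Drop-seq pipeline on hg38 per the submitters' processing notes. Which aligner and annotation were used, and whether counting used strand, is not stated. The total UMI count per library, 175878 to 1744064, sets the precision for low genes. Libraries were grouped by the labels and their columns found by well name; 0 columns were left unused. Of 31835 gene identifiers, 30959 were matched to GENCODE v44. Genes with a mean of at least 3 UMIs per library, regardless of group, were tested. edgeR's filterByExpr was an alternative, since it needs as many libraries over its limit as a group holds, and 1 shallow library then removes PARP14. Counts were TMM-scaled and fitted with edgeR 4.0.16 (quasi-likelihood, R 4.3.3), as 9 mutant against 9 wild-type libraries, as 4 lines with a joint test among the mutant lines, and as genotype by time over 54 libraries. Genes with a Benjamini-Hochberg adjusted p under 0.05 were called. Exact permutation tests were two-sided over all 48620 splits of 9 against 9 libraries, with 4.11e-05 the smallest p they can give. DESeq2 1.42.0 and limma-voom 3.58.1 were alternatives, beside other scalings, filters, covariates and sets of libraries. Over 45 pairs of libraries of one line, the chi-square per degree of freedom was 1.08 to 3.98, so no column was a copy of another. The labels call the libraries biological replicates. Libraries made from the same RNA could also give values near 1, so this does not set biological apart from technical replicates. Scripts were tested on simulated data.

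The members and the 33 gene lists were chosen with earlier results of these data known. Genes were named by rule: among called genes with one sign in the 3 lines and a mean of at least 10 UMIs, the 10 largest rises and 10 largest falls; the 5 smallest p; the genes the study named for these libraries; up to 6 called genes and the most abundant gene not called in each list; and up to 5 genes each with the smallest p against 2 h, against 8 h and among lines. CUX1, RHEB, ARPC1B and ZC3HAV1 were named after their values were seen. CCL22 was not analysed here, and some genes that the rule names are not reported here.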

Additional observations from a re-analysis of the deposited data

Results flagged for a closer look

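Among 68 groups of 9 libraries checked for a library far from the others, of which chance would set apart about 1 in 20, 2 were found. AFF2 was at 11.54 CPM in wild-type replicate 9, far above the other wild-type libraries, and wild-type replicate 5 held 1744064 UMIs, the deepest library.

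The mutant effect on the log2 scale differed between 4 h and 2 h (effect at 4 h minus that at 2 h) by 0.749 for IL4R, 0.906 for CD83, 1.09 for GADD45B, 0.966 for GCSAM, 0.799 for MGAT1, 0.752 for SOCS1, 1.35 for MX1, 0.569 for RBM38, and 0.613 for TRIM25, and by -0.474 for BMP7 and -0.458 for BACH2. Against 8 h it differed by 0.866 for LMO4, -0.457 for BMP7, and -0.75 for BMF. These passed the test of the difference itself in the edgeR model of 54 libraries.

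The mutant lines differed in the joint test, with the largest minus the smallest log2 fold change at 3.12 for IFI44L, 3.11 for CAMK4, 2.03 for BCL11A, 2.0 for CD48, 1.53 for PAG1, 1.52 for EPCAM, 1.48 for IFIH1, 1.39 for EPSTI1, 1.39 for CD9, 1.17 for SAMD9L, 1.1 for MX1, 1.09 for HELZ2, 1.06 for IRF7, 1.04 for RIGI, 0.851 for EIF2AK2, and 0.584 for ISG15.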

How the results depend on the processing

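Over 34 alternatives, the 79 genes named and called kept their direction in 2662 of 2662 values and their call in 2462, and 32 of them lost the call in none. Calls were lost mostly without the N421K libraries (41 genes), under the replicate block (38), and within plate row C (36), and 13 genes lost it when a single library was left out, 9 of them without N421K replicate 1. The 381 genes called became 117 without N421K (78 higher, 39 lower) and 111 within plate row C (79 higher, 32 lower), both with fewer libraries. DESeq2's Wald test gave 268 genes in N421K and 27 among the lines, and limma-voom 17 among the lines, and the cause was not tested. D419G had 38 genes without the shallow libraries. Against 8 h, 7 genes differed with no filter on low counts, 1 without D419G, and 0 without N421K, and against 2 h 11 differed without N421K. With the replicate number as a block, 79 genes were called (50 higher, 29 lower), with 35 in D419G, 16 in D419N, 212 in N421K, and 24 among the lines. Wild-type replicates 4 to 9 have no mutant partner and add nothing there. IRF4, CD22, ALDOC, and MSMO1 were among the 38 named genes that lost their calls with the block (adjusted p = 0.147, 0.153, 0.147, and 0.0546, edgeR). Whether libraries with the same number were handled together is not stated. Of 18 same-number pairs, 4 had deviations correlated above 0.1 (median 0.032, against 0.0070 for different numbers). The same-number values ran from -0.26 to 0.21, so they cannot decide whether the numbers pair the libraries. Leaving out 1 library at a time gave 278 to 447 genes (154 to 227 higher, 123 to 220 lower), 19 to 108 in D419G, 35 to 95 in D419N, 198 to 461 in N421K, and 18 to 62 among lines, and leaving out 1 replicate number gave 14 to 33 against 2 h and 1 to 4 against 8 h.

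Of 32 genes named and not called, values near 0 changed sign as follows, on the log2 scale. HSP90AB1 was at 0.0032 with limma-voom, 0.029 with the block, 0.0093 without the shallow libraries, 0.027 without D419G, and -0.031 to 0.0070 without single libraries. HSPA5 was at -0.017 without the shallow libraries, -0.035 without D419G, -0.00080 without D419N, and -0.037 to 0.032 without single libraries. MT-CO2 was at -0.011, -0.013, and -0.032 without the shallow libraries, D419G, and N421K, and -0.035 to 0.027 without single libraries. IL4R was at -0.051 within row C, -0.033 without D419N, and -0.0029 (without D419N replicate 3) to 0.068 without single libraries. With the block, B2M was at -0.044 and REL at 0.021. Without N421K, SP100 was at -0.015, MAVS at 0.0097, MS4A1 at -0.0072, SYK at 0.0022, GNAI2 at 0.00083, TOP2A at -0.0068, CAMK4 at 0.16, and CD9 at -0.15.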
